A study of Mus musculus with 4 samples.

Results

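Muscle ankyrin repeat, LIM-domain and Z-disc genes that respond to stretch were read per array in 4 mouse hearts. The gene list has 10 members, Ankrd1, Ankrd2, Ankrd23, Csrp3, Tcap, Xirp1, Xirp2, Myoz2, Fhl1 and Fhl2, out of 19938 genes that have a probe set with that gene as its only symbol in the array annotation. Each member was read by 1 probe set. All 10 were above the filter on dim genes, a 4-array mean of 4.10 on the log2 scale, as were 16708 genes in all. The members were chosen by the differences of Ankrd2 and Fhl1 between genotypes on these same arrays, both lower in the knockout hearts. Every difference between genotypes given here for a member is therefore a description, with no test.

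The arrays held 3 heart samples labelled MAFbx KO and 1 labelled wild type, all taken 1 week after transverse aortic constriction (TAC), which narrows the aorta and loads the left ventricle with pressure. MAFbx, encoded by Fbxo32, is the substrate-binding subunit of a muscle ubiquitin ligase. The labels give neither strain, age nor the way the knockout was made, and no unloaded heart was analysed here. RNA of whole heart tissue was hybridised to Affymetrix Mouse Gene ST arrays. The values are RMA values, which are log2 probe set signals after quantile normalization between arrays. The labels do not state that each numbered heart is a separate animal, so the spread between knockout arrays may be partly technical, and with 1 wild type array no spread can be given for that genotype.

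The muscle ankyrin repeat proteins bind the spring region of titin in the I-band and also enter the nucleus, and their genes are induced in striated muscle by stretch, injury and pressure load. The four-and-a-half LIM proteins FHL1 and FHL2 bind titin in the same part of the sarcomere, and in mice FHL1 is known to take part in the growth response of the heart to pressure load. The Z-disc proteins of the list anchor titin and actin filaments, link them to calcineurin signalling, or join the sarcomere to the intercalated disc.

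The arrays were alike overall. Their medians over 16708 genes lay between 6.57 and 6.62, and the correlations between arrays across genes, which are not independent replicates, lay between 0.975 and 0.988. Fbxo32, the targeted gene, read 5.65, 5.61 and 5.56 on the knockout arrays, against 7.54 on the wild type array. Xist, transcribed from the inactive X chromosome of females, read 9.18 and 9.52 in knockouts 1 and 2 and 3.20 in knockout 3, against 4.13 in wild type 1. The Y-linked gene Eif2s3y read 3.31 and 3.64 in knockouts 1 and 2 and 8.49 in knockout 3, against 8.57 in wild type 1. The labels do not state sex. These readings are those of female hearts in knockouts 1 and 2, and of male hearts in knockout 3 and wild type 1. The knockout mean thus mixes both patterns, and the wild type array has only 1. Because knockouts 1 and 2 stand apart from the other arrays in these transcripts, the difference of knockout 3 from wild type 1, a pair alike in them, is given beside each main result.

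Of the 10 members, 5 read lower on every knockout array than on the wild type array (Ankrd1, Ankrd2, Xirp1, Xirp2 and Fhl1), 3 read higher on every knockout array (Tcap, Myoz2 and Fhl2), and 2 overlapped (Ankrd23 and Csrp3). Over all genes above the filter, 24.2% read lower on every knockout array and 24.2% read higher. The member differences of the knockout mean from wild type had a median of -0.25 (log2), against 0.0033 over all genes. Of the members, 5 differed from wild type by more than 0.5 in size, as did 6.54% of all genes. Since the list was drawn up from this same contrast, nothing is read from these counts.

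**Figure D1:**
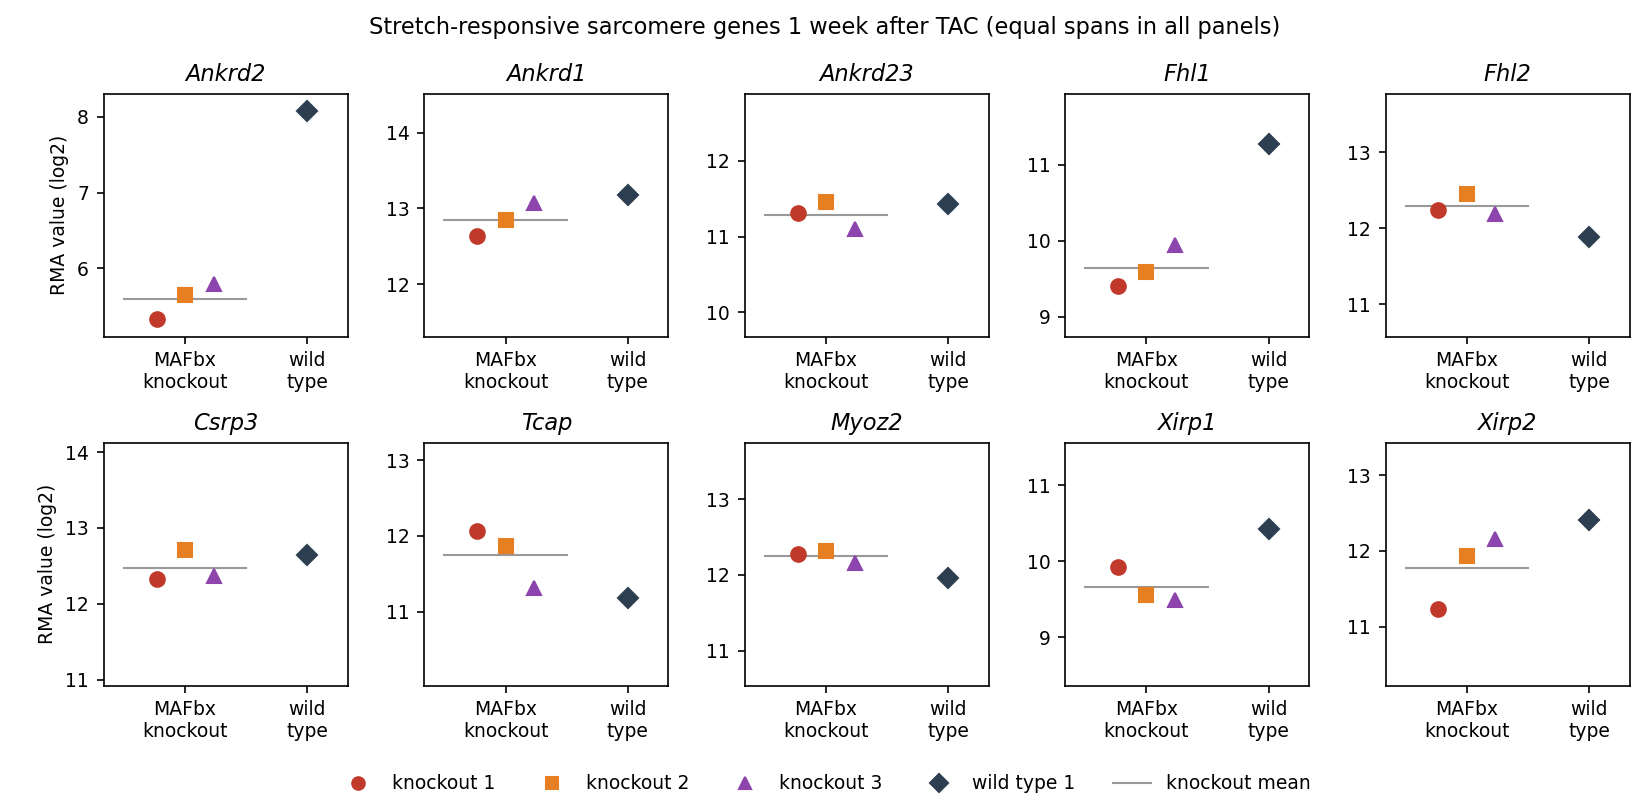
RMA value (log2) of each of the 10 members on the 3 MAFbx knockout arrays and the 1 wild type array after TAC; each panel spans the same range of log2 units, and the grey line is the knockout mean. Ankrd2 and Fhl1 show the widest gaps, with knockout values of 5.33 to 5.80 and 9.40 to 9.94 against wild type values of 8.07 and 11.27.

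Among the ankyrin repeat genes, the gap between genotypes was far wider for Ankrd2 than for Ankrd1 or Ankrd23. Ankrd2, which encodes the ankyrin repeat protein of skeletal and, at a lower level, cardiac muscle (probe set 10463189), read 5.33, 5.65 and 5.80 on the knockout arrays, against 8.07 on the wild type array. Every knockout heart lay more than 2 log2 units below the wild type heart, and the knockout hearts lay within 0.47 of each other. The knockout mean was 5.59 ± 0.24 (SD, n = 3), which is 5.57-fold lower than wild type, a log2 difference of -2.48. In size this exceeded the difference of 99.95% of the genes above the filter. The list was chosen for this difference among others, so nothing is read from that rank. The Xist-low pair, knockout 3 and wild type 1, gave -2.27.

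Ankrd1, which encodes the cardiac ankyrin repeat protein and is a standard marker of the loaded ventricle (probe set 10467191), read 12.64, 12.85 and 13.07 in the knockout hearts, against 13.18 in the wild type heart. The knockout hearts were all lower, but knockout 3 came within 0.11 of wild type. The log2 difference was -0.33, and it was -0.22 without knockout 1 and -0.435 without knockout 3. Ankrd23, the diabetes-related ankyrin repeat gene (probe set 10353878), read 11.31, 11.46 and 11.10 in the knockout hearts, against 11.43 in the wild type heart. Its groups overlapped, because knockout 2 read above wild type, and the log2 difference was -0.14 ± 0.18 (SD of the knockout arrays, n = 3). It was -0.225 without knockout 2 and -0.045 without knockout 3, and the Xist-low pair gave -0.33. The log2 difference of Ankrd2 minus that of Ankrd1 was -2.15, and minus that of Ankrd23 it was -2.34.

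Both Ankrd1 and Ankrd2 lie on chromosome 19, and their upstream sequences are shown because these related genes had log2 differences of such unlike size. The stretch of 250 bases before the annotated start was read from the RefSeq promoter table (build GRCm38.p6), which holds 8 of the 10 members. Capitals mark the matches to 3 motifs searched on both strands: MCAT, the TEAD element, spelled CATTCC; CArG, the element of serum response factor; and the MEF2 element. Over all 32851 promoters of the table, the same window held MCAT in 12.6%, CArG in 1.47% and MEF2 in 2.92%. No printed window had overlapping motifs.
Ankrd2 (chr19:42035777-42036026, + strand): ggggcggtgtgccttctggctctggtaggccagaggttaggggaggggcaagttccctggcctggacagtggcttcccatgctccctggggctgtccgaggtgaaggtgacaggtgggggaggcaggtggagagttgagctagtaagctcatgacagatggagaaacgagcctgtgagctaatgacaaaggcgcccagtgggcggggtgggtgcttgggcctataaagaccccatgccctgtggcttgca
Ankrd1 (chr19:36119845-36120094, - strand): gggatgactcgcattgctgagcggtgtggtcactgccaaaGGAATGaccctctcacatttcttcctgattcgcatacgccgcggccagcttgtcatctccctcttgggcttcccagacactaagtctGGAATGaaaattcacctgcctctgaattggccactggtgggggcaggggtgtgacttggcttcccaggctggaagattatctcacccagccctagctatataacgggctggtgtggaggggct
The Ankrd1 window holds 2 MCAT matches, 210 to 205 and 123 to 118 bases before the start, both on the opposite strand. The Ankrd2 window holds none of the 3 motifs in these letters. Whether any motif has a part in a member's difference was not tested, here or for the windows below.

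Fhl1 was lower and Fhl2 higher in the knockout hearts. Fhl1, the LIM-domain gene named above (probe set 10599736), read 9.40, 9.59 and 9.94 in the knockout hearts, against 11.27 in the wild type heart. All knockout hearts lay well below wild type, and the closest of them was knockout 3. In the knockout hearts it averaged 9.64 ± 0.27 (SD, n = 3), a 3.09-fold lower level and a log2 difference of -1.63. The Xist-low pair gave -1.33. Fhl1 is an X-linked gene, and the arrays with high Xist read 9.40 and 9.59, against 9.94 and 11.27 on the arrays with low Xist. Both arrays with high Xist are knockout arrays, so Xist level and genotype cannot be told apart in that comparison.

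Fhl2, the heart-enriched member of the family (probe set 10354247), read 12.24, 12.45 and 12.19 in the knockout hearts, against 11.89 in the wild type heart. Every knockout heart was higher, by 0.30 to 0.56. The log2 difference was 0.40, with a knockout SD of 0.14 (n = 3), and the log2 difference of Fhl1 minus that of Fhl2 was -2.03. For both genes the windows before the start are shown because both genes have a CArG match and their differences have opposite signs.
Fhl1, upstream start (chrX:56779433-56779682, + strand): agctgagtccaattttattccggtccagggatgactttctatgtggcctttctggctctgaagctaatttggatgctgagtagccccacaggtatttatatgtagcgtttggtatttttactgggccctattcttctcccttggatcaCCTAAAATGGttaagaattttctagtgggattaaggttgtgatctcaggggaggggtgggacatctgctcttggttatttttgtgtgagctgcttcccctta
Fhl2, upstream start (chr1:43196762-43197011, - strand): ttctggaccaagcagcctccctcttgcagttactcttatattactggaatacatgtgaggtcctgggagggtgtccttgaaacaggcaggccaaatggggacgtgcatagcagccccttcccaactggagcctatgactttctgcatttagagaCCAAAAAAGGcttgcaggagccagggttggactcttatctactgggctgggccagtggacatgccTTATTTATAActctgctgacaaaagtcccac
Fhl2, downstream start (chr1:43163962-43164211, - strand): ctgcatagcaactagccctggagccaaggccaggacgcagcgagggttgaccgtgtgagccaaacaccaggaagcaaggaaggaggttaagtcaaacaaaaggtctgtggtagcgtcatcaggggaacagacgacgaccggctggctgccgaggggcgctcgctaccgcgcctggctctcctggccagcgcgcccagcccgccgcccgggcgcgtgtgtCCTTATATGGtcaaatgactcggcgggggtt
The CArG match lies 102 to 93 bases before the upstream Fhl1 start. For Fhl2 it lies 96 to 87 bases before the upstream start, which also holds a MEF2 match 31 to 22 bases before the start, and 31 to 22 bases before the downstream start. The downstream Fhl1 start holds none of the 3 motifs in its window. A link between these matches and the differences of Fhl1 and Fhl2 was not tested.

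**Figure D2:**
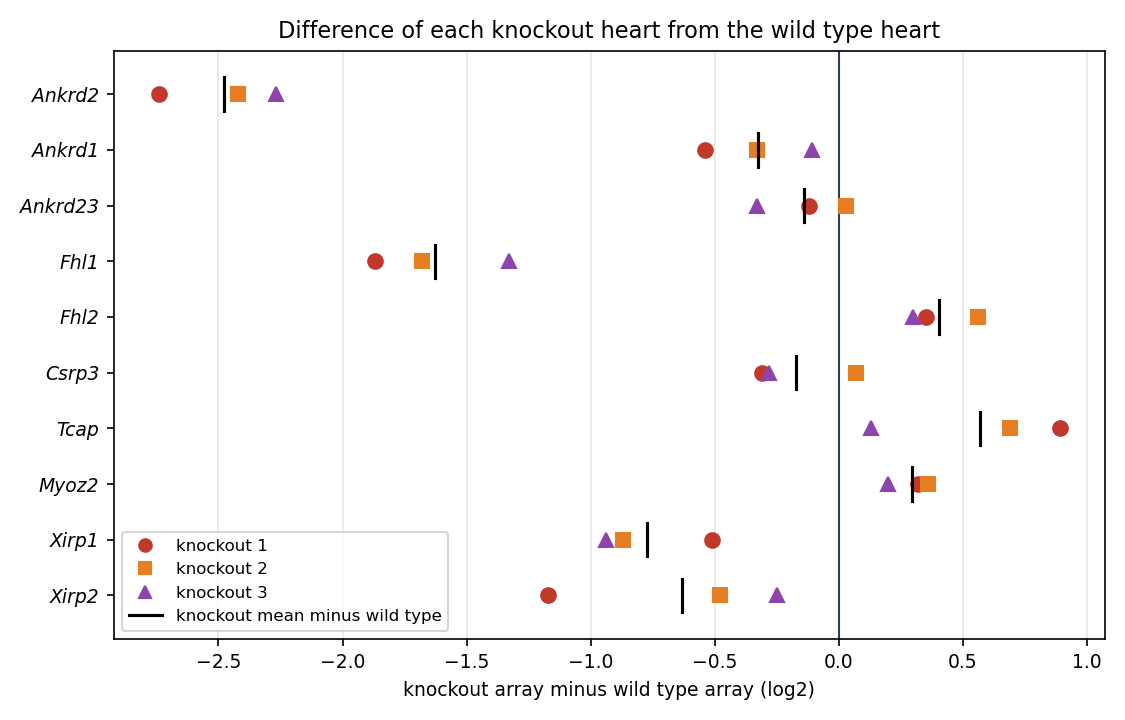
Difference of each knockout array from the wild type array (log2) for the 10 members, ordered by family; symbols are the 3 knockout hearts and black bars the knockout mean. Ankrd2 and Fhl1 lie far to the left at means of -2.48 and -1.63, and Fhl2, Tcap and Myoz2 lie to the right of 0 on every knockout array.

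The Xin genes encode actin-binding repeat proteins of the intercalated disc and the Z-disc region. Xirp1 (probe set 10597764) read 9.92, 9.56 and 9.49 in the knockout hearts, against 10.43 in the wild type heart. All knockout hearts were lower, by 0.51 to 0.94, and here knockout 3 lay farthest from wild type. The log2 difference was -0.77, with a knockout SD of 0.23 (n = 3), a 1.71-fold lower level. Xirp2 (probe set 10472426), the paralogue, read 11.24, 11.93 and 12.16 in the knockout hearts, against 12.41 in the wild type heart. The knockout hearts were again all lower, but spread over 0.92, more than the difference of -0.63 between the knockout mean and wild type. Knockout 1 carried much of it, since without that array the difference was -0.365, and the Xist-low pair gave -0.25. The window before the Xirp2 start is shown because, of the members lower on every knockout array and listed in the table, it alone holds a MEF2 match, 74 to 65 bases before the start.
Xirp2 (chr2:67445752-67446001, + strand): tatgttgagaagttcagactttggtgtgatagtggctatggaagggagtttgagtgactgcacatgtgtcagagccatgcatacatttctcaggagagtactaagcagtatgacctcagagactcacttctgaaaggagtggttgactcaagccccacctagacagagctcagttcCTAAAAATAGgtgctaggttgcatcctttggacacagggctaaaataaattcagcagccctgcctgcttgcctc

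Among the Z-disc anchors, Tcap and Myoz2 were higher in the knockout hearts and Csrp3 overlapped. Tcap encodes telethonin, which caps pairs of titin molecules at the Z-disc (probe set 10380887). It read 12.07, 11.87 and 11.31 in the knockout hearts, against 11.18 in the wild type heart. Knockout 3 stood only 0.13 above wild type, and the log2 difference of 0.57, with a knockout SD of 0.39 (n = 3), was 0.79 without knockout 3 and 0.41 without knockout 1. Myoz2, which encodes a calsarcin that tethers calcineurin to alpha-actinin (probe set 10501895), read 12.28, 12.32 and 12.16, against 11.96 in wild type. Its knockout arrays lay within 0.16 of each other, all above wild type, with a log2 difference of 0.29 (0.20 in the Xist-low pair).

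Csrp3 encodes muscle LIM protein, a Z-disc protein long discussed as part of the stretch sensor (probe set 10563770). It read 12.33, 12.71 and 12.36 in the knockout hearts, against 12.64 in the wild type heart. The wild type value lay inside the knockout range, and the log2 difference of -0.17 was smaller than the knockout SD of 0.21 (n = 3). It was -0.295 without knockout 2 and -0.105 without knockout 1, and the Xist-low pair gave -0.28. Of the promoter windows of Csrp3, Ankrd23 and Myoz2, Csrp3 held none of the 3 motifs before either of its annotated starts, Ankrd23 held 1 MCAT match before its downstream start, and Myoz2 held 1 MEF2 match.

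Knockout 3 was the knockout array closest to wild type for 7 of the 10 members, and for 40.5% of all genes above the filter. The exceptions were Xirp1, closest on knockout 1, and Ankrd23 and Csrp3, closest on knockout 2. In the Xist-low pair the member median was -0.265, against 0 over all genes. Ankrd2, Fhl1 and Xirp1 had differences of -2.27, -1.33 and -0.94 in that pair, and Ankrd1, Tcap and Myoz2 had -0.11, 0.13 and 0.20. Whether sex has a part in these differences was not tested. The knockout SD of the members had a median of 0.22, against 0.16 over all genes, with Xirp2 (0.48) and Tcap (0.39) the most variable and Myoz2 (0.08) the least.

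The genes most like Ankrd2, Fhl1 and Ankrd1 over the 4 arrays were found by the root-mean-square distance between profiles centred on their own means. The search and its counts took genes above the filter. They left out the members, predicted genes and genes with only a clone or accession name. For Ankrd2 the closest of the genes searched was Hmox1, which encodes heme oxygenase, at a distance of 0.0962, followed by Clec4d (0.28), Fbxo32 (0.31), Arg1 (0.32) and Ccl9 (0.33). Hmox1 read 7.23, 7.49 and 7.47 in the knockout hearts, against 9.98 in the wild type heart. It is the gene called by the limma test (adjusted p = 0.043). For Fhl1 the closest were Msr1 (0.0996), Ccl9 (0.115), Jpt2 (0.12), Itgam (0.13) and Ms4a6d (0.14). Only 1 gene lay within 0.1 of Ankrd2 and 1 within 0.1 of Fhl1, but 581 genes lay within 0.1 of Ankrd1, whose profile was shallow. The closest to Ankrd1 were Vsir, Rps6ka3, Cd209e, Dnaja1 and Kndc1, at distances of 0.0043 to 0.0148. Likeness over 4 arrays that share hybridisation and normalization is a description only.

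**Figure D3:**
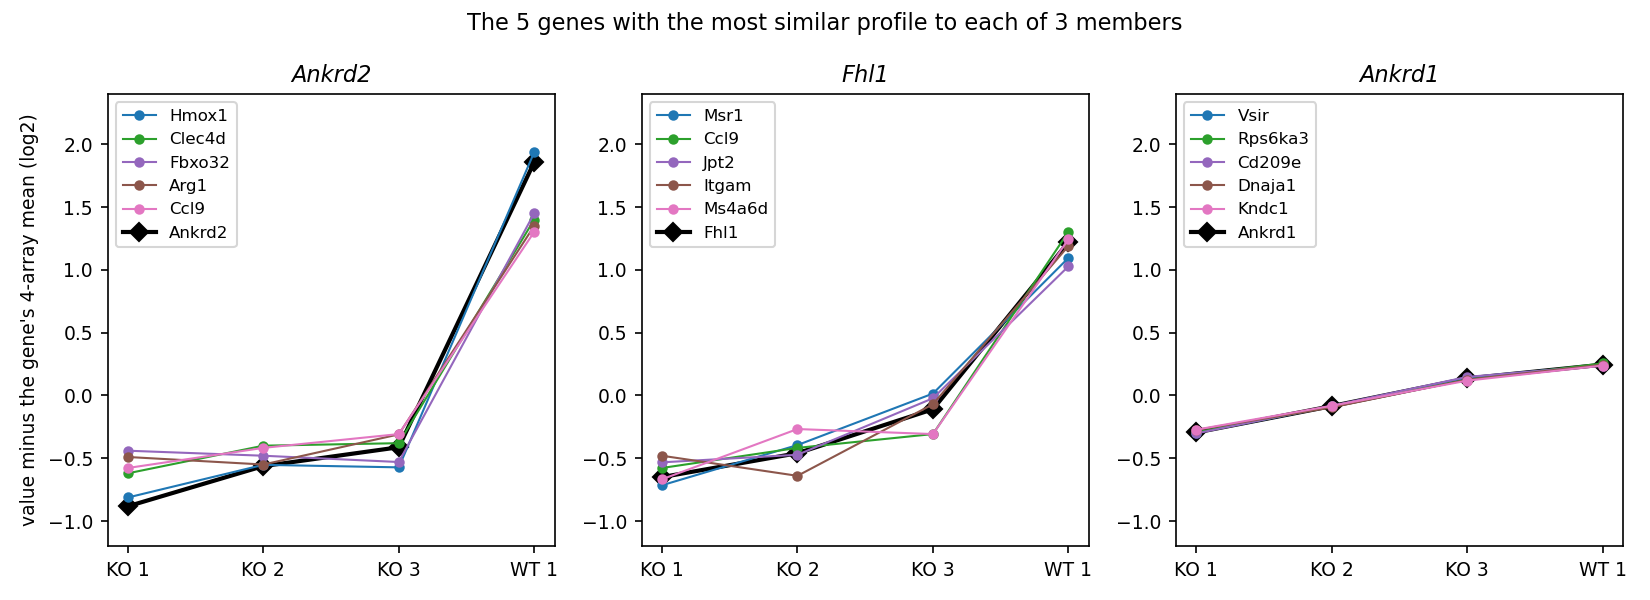
Values on the 4 arrays minus each gene's own 4-array mean (log2) for Ankrd2, Fhl1 and Ankrd1 (black) and the 5 genes with the smallest root-mean-square distance to each among the genes searched. Lines join the arrays as a visual guide and imply no order among knockouts. Hmox1 runs beside Ankrd2 on all arrays, and the Ankrd1 profile spans 0.54 against 2.74 for Ankrd2.

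Cell type markers were read on the same arrays, and in bulk tissue fewer cells of a type cannot be told apart from less RNA per cell. The summed signal (antilog of the RMA values) of 9 macrophage markers was 1401, 1433 and 1865 in the knockout hearts, against 3140 in the wild type heart. On every knockout array 9 of 9 markers read lower, beside 24.2% of all genes above the filter. Macrophage markers were thus lower on the same arrays as Ankrd2 and Fhl1, and Itgam, one of them, was among the genes closest to Fhl1. Their part in these results was not tested. The 11 cardiomyocyte markers summed to 97029, 98201 and 90874 in the knockout hearts, against 90991 in the wild type heart. The defining markers of heart muscle were therefore present at high signal on all arrays, and Myh6, the alpha-myosin heavy chain gene, read 13.28, 13.26 and 13.23, against 13.12. Of these 11 markers, 5 read higher and 1 lower on every knockout array, beside 24.2% each way over all genes. Their median log2 difference was 0.14.

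Since Ankrd2 and Fhl1 are strongly expressed in skeletal muscle, markers of that tissue were also read. The 13 skeletal muscle markers summed to 883, 938 and 1096 in the knockout hearts, against 999 in the wild type heart. The fast myosin genes Myh1 and Myh4 stayed under the filter level of 4.10 on all 4 arrays. Myh2, also a fast myosin gene of the list, lay above that level on all 4 arrays and read higher on every knockout array. Mybpc2 had the highest signal of the 13 markers on every array, well above the filter level. Of the 11 markers above the filter, 1 read lower and 3 higher on every knockout array, beside 24.2% each way over all genes. The knockout sums lay on both sides of wild type. The sum of the 8 fibroblast markers was highest in knockout 3. It was 8388, 11454 and 19902 in the knockout hearts, against 13327 in the wild type heart. Of the single markers, Dcn was highest in knockout 2 (12.36) and Pdgfra in wild type 1 (8.64).

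The 7 atrial cardiomyocyte markers, a sum carried mostly by Nppa, gave 4782, 5058 and 10824 in the knockout hearts, against 10328 in the wild type heart. Nppa read 11.62, 11.94 and 13.23 in the knockout hearts, against 13.09 in the wild type heart. Myl7 read 9.12, 7.86 and 8.10, against 9.01, and Sln 5.75, 5.18 and 5.46, against 5.63. Unlike Nppa, both were highest in knockout 1, so the sum is not read as the amount of atrial tissue. Of the 6 atrial markers above the filter, 1 was lower and 1 higher on every knockout array, beside 24.2% each way over all genes. The endothelial markers summed to 3232, 3534 and 4304, against 3104, with 4 of 7 higher and 0 lower on every knockout array. The 7 smooth muscle markers summed to 5460, 5918 and 6271, against 7473, with 4 of 7 lower and 2 higher on every knockout array. The lymphocyte markers summed to 178, 192 and 208, against 180, and the 2 erythroid markers on the array to 330.8, 244.9 and 299.5, against 289.8.

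**Figure D4:**
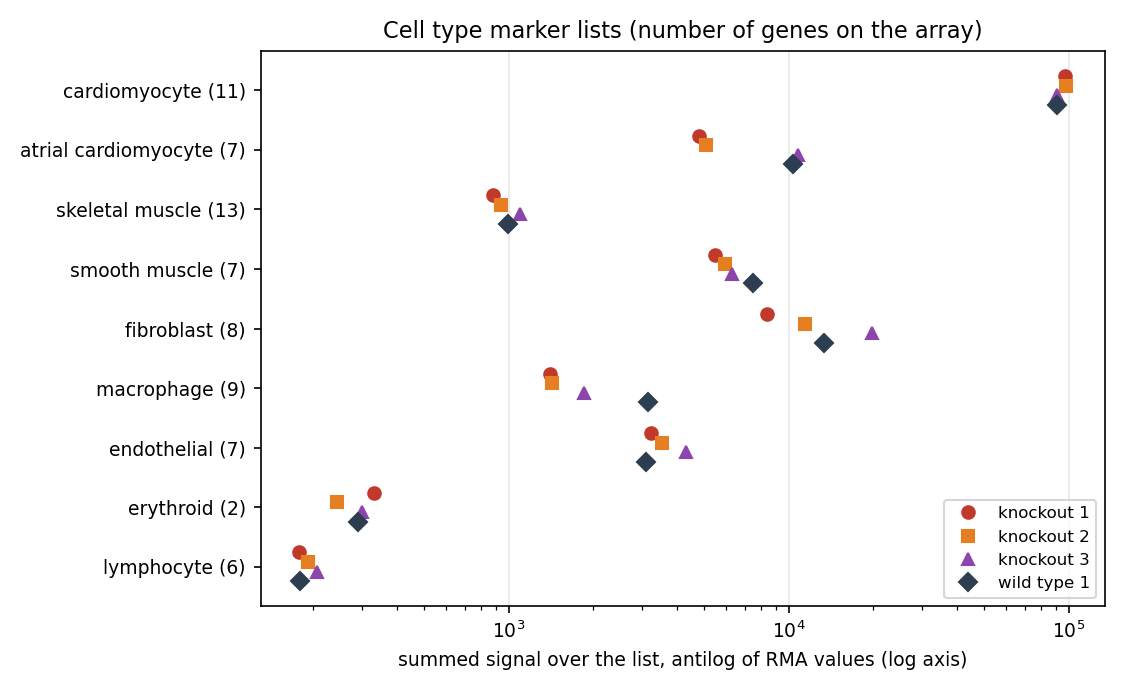
Summed signal of 9 cell type marker lists on each array (log axis); symbols are the 3 knockout arrays and the wild type array. The macrophage sum is lower on every knockout array than on the wild type array (1401 to 1865 against 3140), and the cardiomyocyte and skeletal muscle sums overlap.

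Further genes of the same structures were read in 6 related lists, which hold 121 distinct genes above the filter and no member. The limma test called 0 of them at an adjusted p under 0.05 (lowest adjusted p = 0.343), beside 0.00599% of all genes tested. At an unadjusted p under 0.05 it held 19 lower and 0 higher, beside 3.87% lower and 1.72% higher over all genes. Of the 121 genes, 51 read lower and 19 higher on every knockout array, beside 24.2% each way over all genes, and the median log2 difference was -0.09. The genes of a list are not independent of each other and share the arrays, so these counts describe the lists.

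Of 26 Z-disc and titin partners, 10 were lower and 5 higher on every knockout array, beside 24.2% each way over all genes, with a median of -0.04. Titin itself, Ttn, read 11.86, 11.94 and 11.76 in the knockout hearts, against 11.75 in the wild type heart, and alpha-actinin, Actn2, read 12.62, 12.64 and 12.43, against 12.57. These structural genes stayed within 0.2 of wild type. Flnc, which encodes the muscle filamin that crosslinks actin at the Z-disc, read 10.68, 10.63 and 10.66, against 11.64, a log2 difference of -0.98 (SE 0.17, limma adjusted p = 0.343). The PDZ and LIM genes Pdlim3 and Pdlim7 both stood at -0.82 (limma adjusted p = 0.596 and 0.574).

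Among 19 other LIM and FHL family genes, 10 were lower and 4 higher on every knockout array, beside the same 24.2% each way over all genes, with a median of -0.18. Lmcd1, a LIM gene that acts with calcineurin in the heart, read 7.69, 7.79 and 7.72 in the knockout hearts, against 8.48 in the wild type heart, a log2 difference of -0.75 (SE 0.17, limma adjusted p = 0.472). Its knockout arrays lay close together and below wild type. Lpp, a focal adhesion LIM gene, stood at -0.74 (limma adjusted p = 0.654). None of these passed the test over all genes.

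Of 22 costamere and integrin genes, 8 were lower and 5 higher on every knockout array, against a background of 24.2% each way, with a median of -0.10. The integrin subunit genes Itga5, for the fibronectin receptor, and Itga7, for the laminin receptor of muscle, gave log2 differences of -1.05 and -0.74 (limma adjusted p = 0.386 and 0.596). Itga5 read 8.18, 7.97 and 8.33 in the knockout hearts, against 9.21 in the wild type heart. The 21 Z-disc signalling genes and MARP partners held 2 lower and 4 higher, beside 24.2% each way over all genes, with a median of 0.09. Rcan1, an inhibitor and target of calcineurin, stood at -0.88 (limma adjusted p = 0.588) and Nfatc3, an NFAT factor, at -0.25 (limma adjusted p = 0.95).

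Ankrd1 is a known target of YAP and TEAD, and the list of these factors and their other targets had 6 of 16 genes lower and 2 higher on every knockout array, against a background of 24.2% each way, with a median of -0.04. Yap1 and Tead1 themselves overlapped, at -0.08 and -0.04. Their target Ccn2, a matricellular growth factor, read 10.26, 10.30 and 11.02 in the knockout hearts, against 11.39 in the wild type heart (log2 difference -0.86, limma adjusted p = 0.802). As with Ankrd1, knockout 3 lay closest to wild type, as it did for 40.5% of all genes above the filter. The TEAD cofactor gene Vgll3 stood at -1.07 (limma adjusted p = 0.544).

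The SRF and MRTF list had 16 of 20 genes lower and 0 higher on every knockout array, beside 24.2% lower over all genes, with a median of -0.39 and a median of -0.315 in the Xist-low pair. The limma fit held 0 of them at an adjusted p under 0.05 and 5 at an unadjusted p under 0.05, all lower. Acta1, the skeletal alpha-actin gene of the fetal program, read 8.27, 10.29 and 12.52 in the knockout hearts, against 12.75 in the wild type heart. Its knockout arrays spanned 4.25, so the log2 difference of -2.39 had a SE of 1.32. Cnn2, a calponin of non-muscle and smooth muscle cells, stood at -1.17 (limma adjusted p = 0.559), and Srf, the factor itself, at -0.32. The list shares Acta2, Cnn1 and Tagln with the smooth muscle markers, whose sum was also lower in every knockout heart. The highest signal in that sum was that of Des (12.10 in wild type 1), also among the Z-disc and titin partners. Of the markers outside the SRF and MRTF list, Des stood at -0.29, and Myh11, Smtn and Lmod1 at 0.24, 0.17 and 0.21. The part of smooth muscle cells in the counts was not tested.

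**Figure D5:**
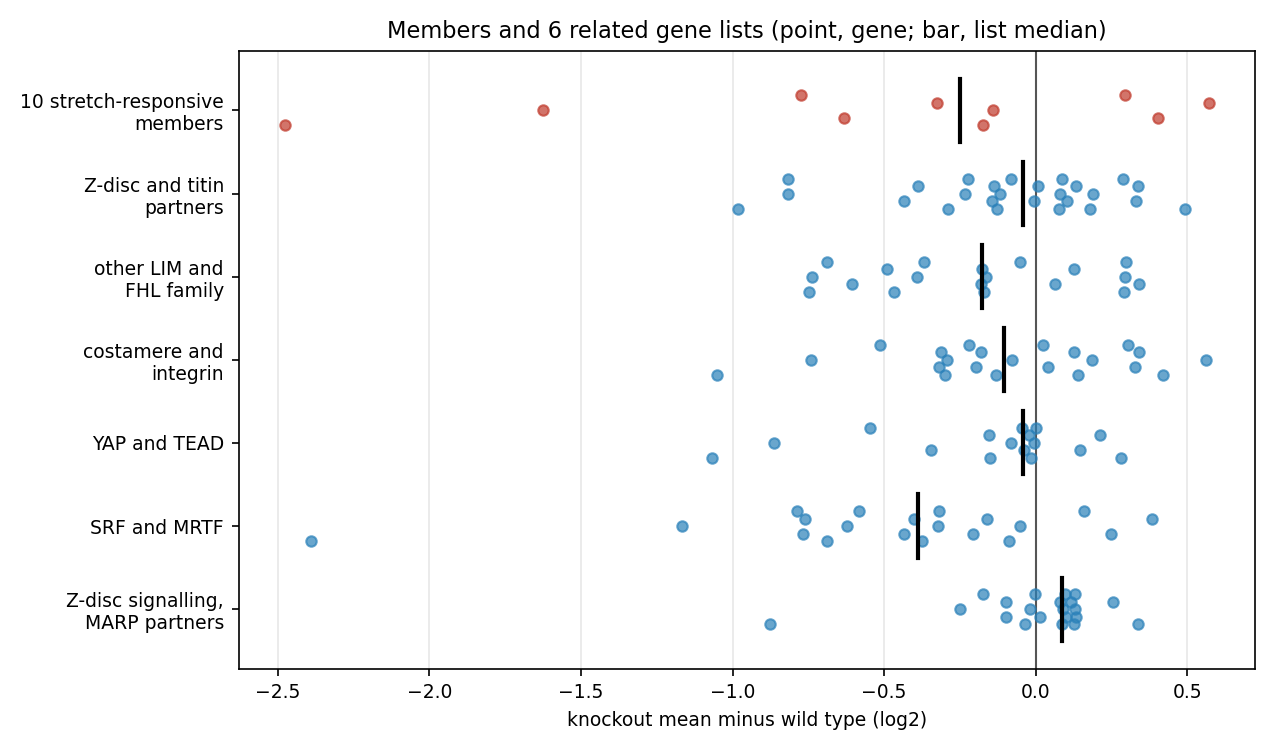
Knockout mean minus wild type (log2) for the 10 members (red) and the genes above the filter in 6 related lists (blue); black bars are list medians. The member median of -0.25 lies between those of the SRF and MRTF list (-0.39) and the other LIM and FHL family genes (-0.18), and Ankrd2 (-2.48) and Acta1 (-2.39) are the lowest points.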

How the data were processed

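RNA of 3 MAFbx knockout hearts and 1 wild type heart after TAC was measured on Affymetrix Mouse Gene ST arrays. The authors deposited log2 values made with Affymetrix Expression Console and RMA, per the submitters' processing notes, which name no versions. RMA equalises the distributions of the arrays, so a shift common to most genes cannot be seen. Scanner intensities were not analysed here.

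Of 35556 probe sets, 21789 had 1 gene symbol, giving 19938 genes (highest 4-array mean where several). Genes under the 25th percentile of all probe set means were left out of the fit. The fit used limma 3.58.1 in R 4.3.3 (knockout minus wild type, two-sided, Benjamini-Hochberg, threshold 0.05) and was tested on simulated data. It takes the knockout spread to hold for the wild type array as well, with 2 residual and 5.05 prior degrees of freedom. The smallest p of an exact permutation test with 1 array against 3 is 0.25. The number of arrays limits all precision.

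The members and lists were chosen with earlier results of these data known. Genes are named by rule: all members, Fbxo32, the 5 closest profiles to Ankrd2, Fhl1 and Ankrd1, and in each of the 6 related lists the pair with the greatest difference among genes whose groups do not overlap (ties kept). Other genes named were chosen after their values were seen. These are Xist, Eif2s3y, Ttn, Actn2, Yap1, Tead1, Srf, Myh6, Nppa and genome neighbours. From the marker lists they also include Myl7, Sln, Myh1, Myh2, Myh4, Mybpc2, Acta2, Cnn1, Tagln, Des, Myh11, Smtn, Lmod1, Dcn and Pdgfra. The alternatives tried were a repeat of quantile normalization, centring of arrays, 2 other filters on dim genes, probe set means, other variance settings and leaving out each knockout array. A percentile over genes and the Xist-low pair alone were added after seeing the data.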

Additional observations from a re-analysis of the deposited data

How the results depend on the processing

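Of the 10 alternatives run on the members, 4 (the other filters and the mean over probe sets) leave every member value as it is by construction. Under the other 6, no member changed direction, and 5 of 60 member values moved by more than the knockout SD, all in the pair of knockout 3 and wild type 1 (Ankrd1 -0.11, Ankrd23 -0.33, Tcap 0.13, Myoz2 0.20, Fhl1 -1.33). The count of members lower on every knockout array stayed at 5 in the alternatives that use all arrays and ran from 5 to 7 when 1 knockout array was left out. The member median ran from -0.31 to -0.185 when 1 knockout array was left out and was -0.21 after renewed quantile normalization. When 1 knockout array was left out, Ankrd2 ran from -2.58 to -2.345 and Fhl1 from -1.775 to -1.505. In the pair of knockout 3 and wild type 1, Ankrd2 stood at -2.27 and Fhl1 at -1.33. The count of genes called by limma over the whole table was 1 and depended on the setting. It was 0 after renewed quantile normalization (945 at an unadjusted p under 0.05), 0 with no filter (1045) and 0 without any 1 of the knockout arrays (477 to 1665). It was 8 with arrays centred on their medians, 3 with a filter at the 50th percentile, 7 with an intensity trend, 9 with robust eBayes and 9 at an adjusted p under 0.1, and the cause was not tested. No paired analysis was possible because the labels name no pairing and there is only 1 wild type array.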

Other observations

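The measured genes next to the members on the chromosome, 2 on each side in the order of the RefSeq gene table, did not show differences of the size seen for Ankrd2 and Fhl1. The neighbours of Ankrd2 had log2 differences of 0.03 for Mms19, -0.28 for Ubtd1 -0.15 for Hoga1 and -0.01 for 4933411K16Rik, against -2.48 for Ankrd2. Those of Fhl1 on the X chromosome were 0.15 for Ints6l, -0.23 for Mmgt1, 0.21 for Map7d3 and -0.15 for Brs3, against -1.63 for Fhl1. Over all 40 neighbours of the 10 members the differences ran from -0.62 for Cx3cr1, a chemokine receptor gene beside Xirp1, to 0.26 for Nck2, an adaptor gene beside Fhl2. Of the 40, 13 read lower and 4 higher on every knockout array, beside 24.2% each way over all genes tested. The window of neighbours was chosen after the member values were seen.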
